A study of Mus musculus with 2 samples.

Results

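The 10 genes followed here belong to the mammalian circadian clock and its output arm: the period genes Per1, Per2 and Per3, the cryptochrome gene Cry1, the PAR-bZIP genes Dbp, Tef and Hlf, the REV-ERB genes Nr1d1 and Nr1d2, and Ciart. They were taken by symbol from a table of 17087 genes, and all 10 were present. Each was described across retinal cell classes and between a control library and a library from mice made diabetic with streptozotocin (STZ), with genes of early and late phase set against each other.

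The clock is a loop of transcription and repression that runs in nearly every cell. The activators BMAL1 (encoded by Arntl) and CLOCK bind E-boxes and switch on the Per, Cry, Nr1d and PAR-bZIP genes, after which PER and CRY proteins repress their own activators, REV-ERB proteins repress Arntl, and DBP, TEF and HLF drive D-box genes further downstream. The retina keeps its own clock, which is known for setting daily rhythms of visual sensitivity, dopamine signalling and photoreceptor metabolism.

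The STZ mice were C57BL/6J males that were given STZ, a toxin of the insulin-producing beta cells, by intraperitoneal injection (55 mg/kg) when 3 to 5 weeks old. A blood glucose over 300 mg/dL defined diabetes, and retinas were taken once hyperglycaemia had lasted 25 weeks. The control mice are labelled as untreated C57BL/6, and their age and sex are not given separately. Cells of 3 retinas were pooled for each library and run on the 10x Chromium 3′ version 3 platform at 1000 cells per µl. There was 1 library per group, so no test could be made and every difference below is one between 2 libraries. The hour of collection is not given in the sources used here. A difference in the hour at which the retinas were taken and a difference between diabetic and control mice cannot be told apart in clock genes.

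The control library held 7169 cells and 27279124 unique molecular identifiers (UMIs, each standing for 1 captured transcript), and the STZ library 12393 cells and 33178623 UMIs, with medians of 3800 and 2062 UMIs per cell. After filters on genes per cell, mitochondrial share and doublets, 5098 control and 8232 STZ cells remained. Clustering without the clock genes gave 8 classes of at least 50 cells in both libraries, named with the ending -like from their marker genes: rod-like (625 control and 1020 STZ cells), cone-like (753 and 889), rod bipolar-like (940 and 977), cone bipolar-like (897 and 1121), amacrine-like (54 and 212), Müller glia-like (1284 and 1398), endothelial-like (87 and 411) and pericyte or smooth muscle-like (91 and 145). Of the cells in these classes, 24 carried a barcode that occurs in both libraries, and leaving them out moved no value given here beyond its counting interval. Levels are UMIs of the gene over all UMIs of the class, in counts-per-million units (CPM), with exact Poisson 95% intervals for levels and conditional binomial 95% intervals for ratios. These intervals take UMIs as independent and cover counting error only, not the spread between mice. Counts from the 3′ end are not divided by transcript length, so a level was compared between classes for the same gene and never between genes.

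The starts of these genes hold the clock's own binding motifs unevenly. RefSeq promoter windows of 300 bases (250 before to 50 after the annotated start, build GRCm38.p6) were held for 9 of the 10 genes, Per2 being the exception, and came to 11 windows. The E-box letters CACGTG, which read the same on both strands, were in 7.15% of all 32851 windows and in the windows of 4 of the genes, Ciart, Cry1, Per1 and Tef. The D-box letters TTATGTAA or TTACGTAA, searched on both strands, were in 1.06% of all windows and in that of Per3. The ROR element letters TAGGTCA or TGGGTCA were in 6.45% of all windows and in none of these genes' windows. The cAMP response element letters TGACGTCA were in 1.79% of all windows and in that of Hlf. The stretches below, 100 bases each on the strand of the gene, are shown because they hold these E-boxes and D-boxes, which are in capitals. They are Ciart at chr3:95882259-95882358 (minus strand), Cry1 at chr10:85185055-85185154 (minus), Per1 at chr11:69098749-69098848 (plus), Tef at chr15:81802503-81802602 (plus) and Per3 at chr4:151044796-151044895 (minus).
Ciart: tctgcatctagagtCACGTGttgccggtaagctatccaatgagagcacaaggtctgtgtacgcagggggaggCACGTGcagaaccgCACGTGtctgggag
Cry1: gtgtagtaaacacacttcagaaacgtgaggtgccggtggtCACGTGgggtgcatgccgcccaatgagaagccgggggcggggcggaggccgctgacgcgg
Per1: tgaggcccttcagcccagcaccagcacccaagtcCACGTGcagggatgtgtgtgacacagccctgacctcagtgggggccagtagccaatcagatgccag
Tef: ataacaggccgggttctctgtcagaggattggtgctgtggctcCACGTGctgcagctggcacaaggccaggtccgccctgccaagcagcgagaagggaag
Per3: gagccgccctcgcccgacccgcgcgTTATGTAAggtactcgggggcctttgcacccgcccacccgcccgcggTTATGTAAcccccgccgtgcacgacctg
Ciart had 3 E-boxes, at 116, 58 and 44 bases before the start, the most of any of these windows. The windows of Dbp, Nr1d1 and Nr1d2 held none of the 4 motifs, which says only that these letters are not in those 300 bases.

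Across classes, most of these genes were highest in the inner retina. Dbp, the D-box activator whose transcript swings widely in many tissues, stood in the control library at 610.4 CPM in cone bipolar-like and 585.8 CPM in rod bipolar-like cells, 305.5 in amacrine-like and 295.1 in Müller glia-like cells, 118 in cone-like, 36.0 in pericyte or smooth muscle-like, 33.8 in rod-like and 20.2 CPM in endothelial-like cells. In the STZ library the order was nearly the same, from 502.6 CPM in cone bipolar-like and 449.6 in rod bipolar-like cells down to 56.5 CPM in rod-like cells. Highest and lowest class differed 30.3-fold in control and 8.89-fold in STZ, and the intervals of Müller glia-like and amacrine-like cells overlapped in both libraries. Rod-like cells had far less Dbp than the bipolar cells they synapse on.

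Hlf, the PAR-bZIP factor best known from liver and brain, spanned 47.6-fold between its highest and lowest class in control and 11.3-fold in STZ. Its level in cone bipolar-like cells was 1119.9 CPM in control against 864.9 in STZ, against 403.4 and 396.4 in rod bipolar-like, 374.5 and 534.3 in amacrine-like and 348.0 and 370.3 CPM in Müller glia-like cells. Cone-like cells had 52.8 and 96.8 CPM, rod-like cells 79.7 and 76.7 CPM. Cone bipolar-like cells led in both libraries without overlap with the next class. Tef, the third PAR-bZIP gene, was flatter: in control its highest level was 172.5 CPM in amacrine-like cells, whose interval overlapped that of cone bipolar-like cells (172.0 CPM) and rod bipolar-like cells (170.1 CPM), and its lowest was 25.0 CPM in pericyte or smooth muscle-like cells.

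The REV-ERB genes, which encode haem-binding repressors of Arntl, followed Dbp. Nr1d1 was highest in control in rod bipolar-like cells at 342.5 CPM, then in cone bipolar-like cells at 300.5 CPM, and lowest in endothelial-like cells at 33.6 CPM. In STZ the amacrine-like, cone bipolar-like, rod bipolar-like and Müller glia-like levels of Nr1d1 (242.7, 230.4, 212.7 and 192.8 CPM) overlapped each with its neighbour. Nr1d2 led in cone bipolar-like cells in both libraries, with 205.7 CPM in control against 158.2 in STZ.

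The repressor genes differed in where they were found. Per3 was highest in rod bipolar-like cells (246.6 CPM in control, 223.3 CPM in STZ), followed by Müller glia-like cells (213.2 and 174.2 CPM). Per1, an immediate target of light and cAMP signals as well as of E-boxes, was low, from 9.85 to 38.2 CPM in control, a span of 3.87-fold. All neighbours in its control order overlapped. Classes further apart in that order did not all overlap, as rod bipolar-like (32.5 to 44.6 CPM) and cone-like cells (13.3 to 21.7 CPM). Per2 was near the limit of detection in photoreceptor-like cells, with 4 UMIs in each library in rod-like cells, and reached 31.7 CPM in control against 29.3 in STZ in rod bipolar-like cells. Its highest STZ level, 39.2 CPM in pericyte or smooth muscle-like cells, overlapped that of rod bipolar-like cells. Cry1 lay between 11.1 and 59.1 CPM in control and between 28.0 and 84.7 CPM in STZ, highest in cone bipolar-like cells both times, and all its neighbours overlapped in both libraries. Ciart, the repressor also called CHRONO, was highest in Müller glia-like cells (49.99 CPM in control against 70.8 in STZ) and nearly missing from photoreceptor-like cells, where rod-like cells had 7 control and 4 STZ UMIs and cone-like cells 2 and 22 UMIs.

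**Figure D1:**
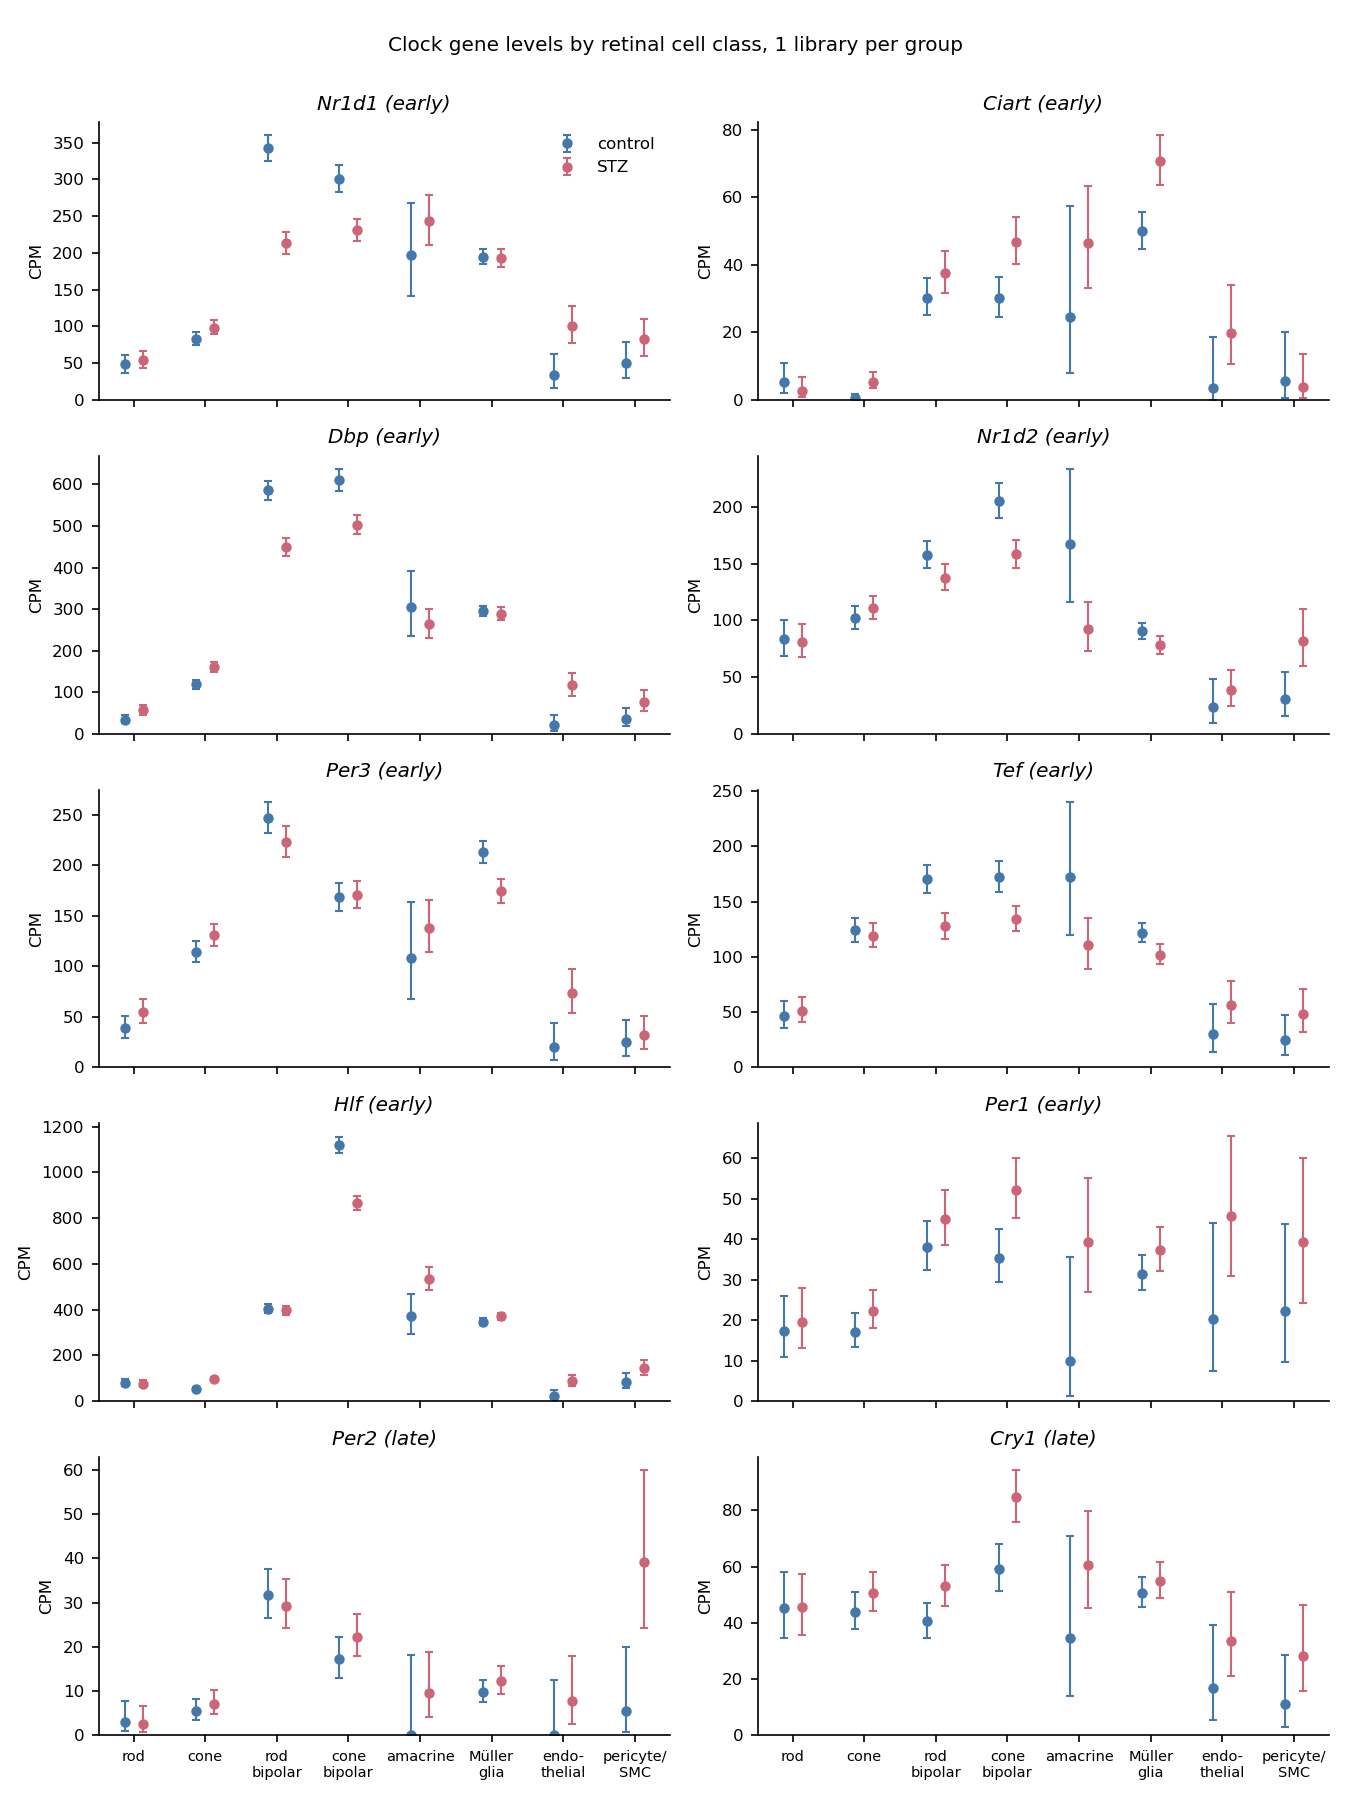
Level in CPM (vertical axis, from 0) of each of the 10 genes in 8 cell classes (horizontal axis) in the control library (blue) and the STZ library (red); points are class sums, bars are exact Poisson 95% intervals, and SMC stands for smooth muscle cells. Dbp and Hlf are highest in cone bipolar-like cells in both libraries, with Dbp at 610.4 CPM in control cone bipolar-like cells and 20.2 CPM in endothelial-like cells.

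Ratios between libraries were read only where both libraries together gave 10 CPM and 20 UMIs or more, which left 71 measured of 80 pairs of gene and class. A pair low in control can pass these minima through the STZ library alone, and it then tends to count as higher. Per2 in pericyte or smooth muscle-like cells (2 control and 21 STZ UMIs) and Per1 in amacrine-like cells (2 and 33) were under 10 CPM in control and passed so. The 8 endothelial-like genes, with 5 to 10 control UMIs each, also reached 20 UMIs through STZ. Of these, 21 were at least 1.5-fold higher in STZ, 3 at least 1.5-fold lower, and 48 lay above equality. The 21 were gathered in few places: 15 were in the endothelial-like and pericyte or smooth muscle-like cells and 6 in the other 6 classes. By counting error alone, the interval of the ratio lay above 1 in 21 pairs, below 1 in 15 and included 1 in 35. The share of all genes with such intervals was not counted. Intervals of genes with many UMIs exclude 1 at small changes, so these counts follow depth and are no result about the members.

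In rod-like cells 1 of 8 measured genes was at least 1.5-fold higher and 0 lower, where over all 7643 measured genes 9.38% were higher and 9.20% lower. In cone-like cells it was 1 higher and 0 lower of 8, against 5.23% and 3.09% of all genes. Rod bipolar-like cells had 0 of 10 higher and 1 lower, against 6.86% and 5.38%, and cone bipolar-like cells 1 higher and 0 lower of 10, against 4.69% and 5.22%. These shares are near those of all genes. Amacrine-like cells had 3 higher and 2 lower of 9, against 16.1% and 13.9%, and Müller glia-like cells 0 and 0 of 10, against 5.96% and 2.91%. In endothelial-like cells all 8 measured genes were higher and 0 lower, against 21.2% and 18.3% of all genes, and in pericyte or smooth muscle-like cells 7 of 8 were higher and 0 lower, against 13.0% and 10.4%. The median log2 ratio of the measured members was 1.38 in endothelial-like and 0.89 in pericyte or smooth muscle-like cells, where that of all genes was -0.01 and 0.01.

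**Figure D2:**
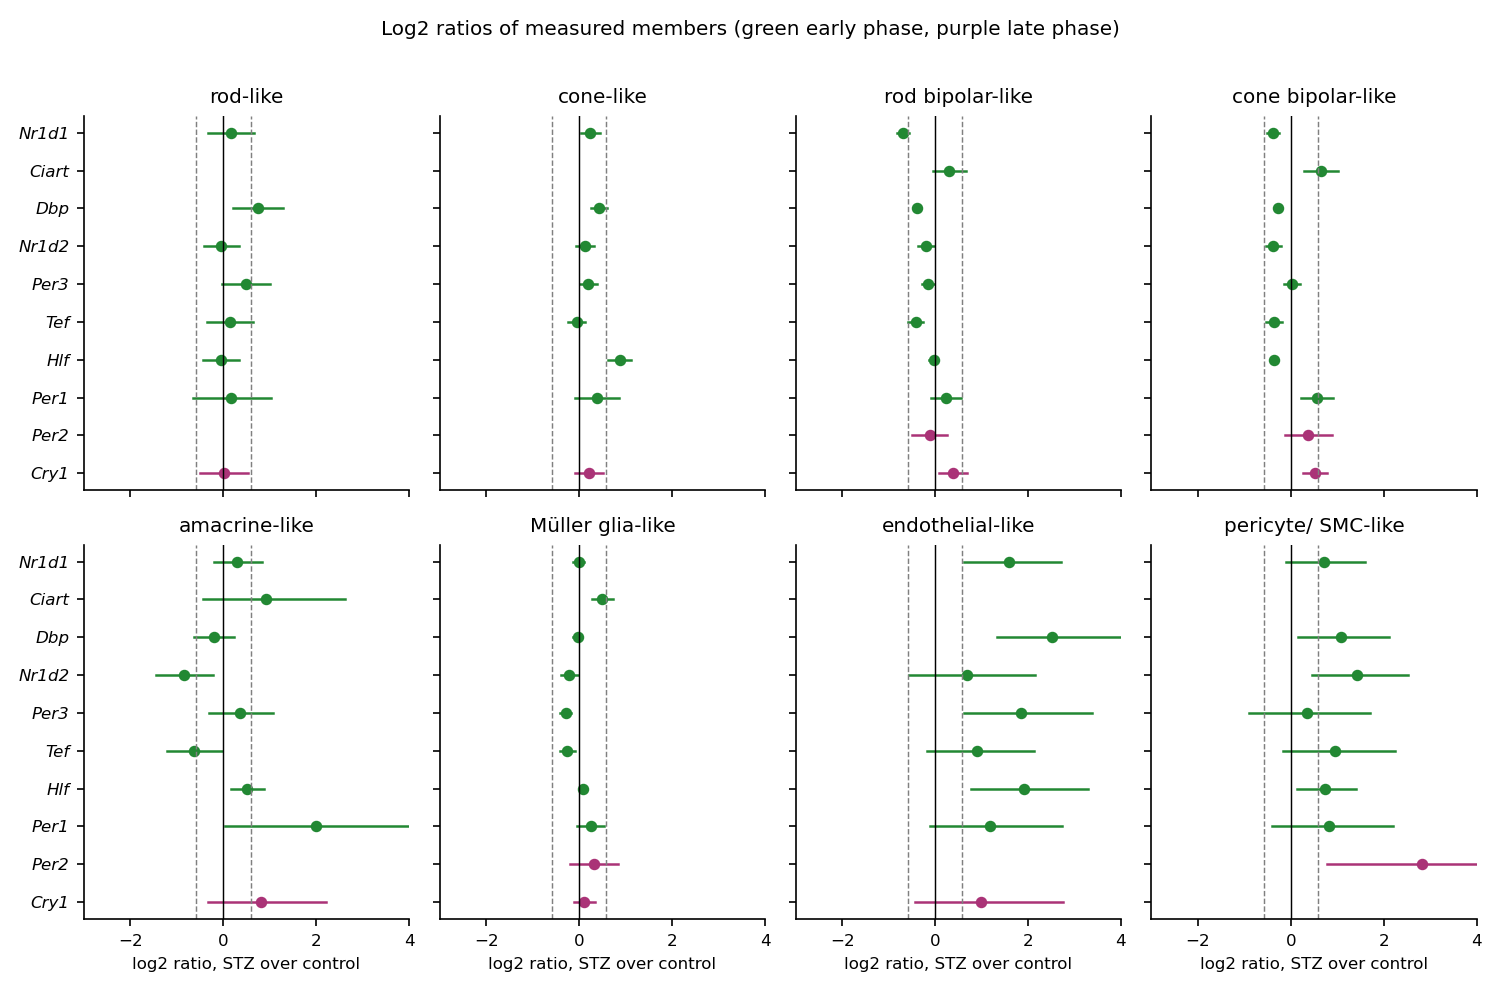
Log2 ratio of STZ over control (horizontal axis) for each measured gene (vertical axis) in each of 8 cell classes; green points are the 8 early-phase genes, purple points the 2 late-phase genes, lines are 95% counting intervals cut at the axis limit of 4, and dashed lines mark 1.5-fold. All 8 measured genes lie above 0 in endothelial-like cells, and Nr1d1 in rod bipolar-like cells lies at -0.69.

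In bipolar cells, the second-order neurons that carry rod and cone signals inward, the abundant early-phase genes were lower in STZ. Nr1d1 in rod bipolar-like cells was 342.5 CPM in control against 212.7 in STZ, 1.61-fold lower (1.48 to 1.76), and in cone bipolar-like cells 300.5 and 230.4 CPM, 1.30-fold lower (1.19 to 1.43). Dbp was 1.30-fold lower in rod bipolar-like cells (1.23 to 1.39) and 1.21-fold lower in cone bipolar-like cells (1.14 to 1.29). Tef was 1.33-fold (1.19 to 1.498) and 1.28-fold lower (1.13 to 1.44). Nr1d2 was 1.15-fold (1.02 to 1.29) and 1.30-fold lower (1.16 to 1.45). Hlf was 1.29-fold lower in cone bipolar-like cells (1.24 to 1.36), while in rod bipolar-like cells its ratio of 0.98 had an interval that included 1. Per3 was 1.10-fold lower in rod bipolar-like cells (1.01 to 1.21) and 1.02-fold higher in cone bipolar-like cells with an interval from 0.906 to 1.14. Of the 10 genes, 5 had an interval below 1 in each bipolar class, a count with no share of all genes to set beside it. In cluster 2, which held most rod bipolar-like cells (882 control and 815 STZ), the interval of Per3 included 1 (0.862 to 1.04). Those of Nr1d1, Dbp, Tef and Nr1d2 stayed below 1 in that cluster. With the strict filter (at least 500 genes, at most 10% mitochondrial), which left 303 control and 178 STZ rod bipolar-like cells, Nr1d2 turned to a log2 ratio of 0.18 there, while Nr1d1, Dbp and Tef stayed below 0 in both classes under every alternative that gave a value. The gate on each cell's own markers kept 0 cone bipolar-like cells and gave no value for them.

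The less abundant genes of the bipolar-like cells went the other way. Cry1 was 40.6 CPM in control against 53.0 in STZ in rod bipolar-like cells, 1.31-fold higher (1.06 to 1.61), and 59.1 and 84.7 CPM in cone bipolar-like cells, 1.43-fold higher (1.198 to 1.72). Ciart was 30.02 and 46.9 CPM in cone bipolar-like cells, 1.56-fold higher (1.22 to 2.01), and Per1 35.4 and 52.2 CPM, 1.47-fold higher (1.17 to 1.87). With cells thinned to 500 UMIs the log2 ratio of Per1 there was 0.08, against 0.56. In rod bipolar-like cells the intervals of Ciart (1.24-fold, 0.970 to 1.59) and Per1 (1.18-fold, 0.946 to 1.47) included 1. Under the strict filter 3 of 10 genes were past 1.5-fold higher in rod bipolar-like cells, with log2 ratios of 1.19 for Ciart, 0.68 for Cry1 and 0.63 for Per1. Per2 was 31.7 and 29.3 CPM in rod bipolar-like cells and 17.1 and 22.3 CPM in cone bipolar-like cells, and both intervals included 1. Cry1, Ciart and Per1 are among the genes whose windows hold an E-box, as does Tef, which was lower in both bipolar classes.

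The early-phase genes are those that peak by day in mouse tissues (Nr1d1, Ciart, Dbp, Nr1d2, Per3, Tef, Hlf and Per1), and the late-phase genes those that follow (Per2 and Cry1). In cone bipolar-like cells the median log2 ratio was -0.32 over 8 early and 0.45 over 2 late genes, and in rod bipolar-like cells -0.17 and 0.14. The early median was above the late one in 3 of 8 classes, the rod-like (0.16 and 0.01), cone-like (0.24 and 0.21) and endothelial-like cells (1.58 and 0.998). It was below in amacrine-like (0.32 and 0.82), Müller glia-like (-0.02 and 0.21) and pericyte or smooth muscle-like cells (0.82 and 2.82). In 5 of the classes the late median rests on 1 gene. In pericyte or smooth muscle-like cells that gene is Per2, with 2 control and 21 STZ UMIs, which passed the minima through STZ.

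A ratio of early to late UMIs within a class does not depend on how the libraries were scaled. It was added after the levels had been seen. Cone bipolar-like cells had 8800 early and 254 late UMIs in control, or 34.6 early UMIs per late UMI (30.6 to 39.4), and 8438 and 418 in STZ, or 20.2 (18.3 to 22.3). The STZ value was 0.583 of the control value (0.497 to 0.683). Rod bipolar-like cells had 27.3 early UMIs per late UMI in control and 19.8 in STZ, 0.725 of control (0.617 to 0.851). In cone-like cells the strict filter gave a log2 change of -0.73, against 0.05. In the 2 bipolar classes the interval of the change excluded 1, and in the other 6 it included 1: 1.12 in rod-like (0.787 to 1.60), 1.04 in cone-like (0.852 to 1.26), 0.882 in Müller glia-like (0.762 to 1.02), 0.530 in amacrine-like (0.240 to 1.17), 1.26 in endothelial-like (0.464 to 3.41) and 0.449 in pericyte or smooth muscle-like cells (0.184 to 1.10). Leaving out each of the 8 early genes in turn gave 0.573 to 0.606 in cone bipolar-like and 0.689 to 0.762 in rod bipolar-like cells. The early sum is weighted by abundance, so this narrow range does not show that the early genes moved together. In control cone bipolar-like cells Hlf and Dbp held 3730 and 2033 of the 8800 early UMIs. Per1 and Ciart, both higher in STZ there, held 118 and 100. Of the late genes, leaving out Per2 gave 0.571 (0.477 to 0.682) and leaving out Cry1 0.628 (0.449 to 0.879) in cone bipolar-like cells. In rod bipolar-like cells the change rested on Cry1: it was 0.632 without Per2 (0.514 to 0.776) and 0.893 without Cry1, with an interval from 0.694 to 1.15. In rod bipolar-like cluster 2 alone, with both late genes, the change was 0.775 (0.653 to 0.920).

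**Figure D3:**
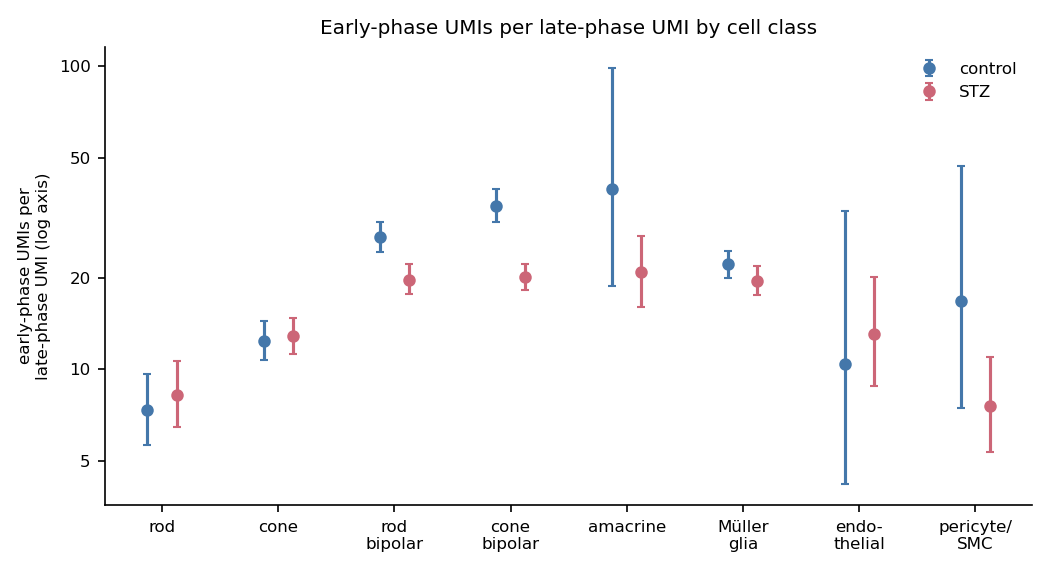
Early-phase UMIs per late-phase UMI (vertical axis, log scale) in 8 cell classes (horizontal axis) in the control (blue) and STZ (red) libraries, with exact binomial 95% intervals. Control and STZ intervals are apart in cone bipolar-like cells (34.6 and 20.2) and rod bipolar-like cells (27.3 and 19.8).

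Single pairs of genes moved the same way in bipolar-like cells. Nr1d1, Dbp and Cry1 are part of the sums above, so these pairs reuse those counts and add no separate support. The early-phase genes Per1 and Ciart, higher in STZ cone bipolar-like cells, were not paired. Nr1d1 and Arntl, which peak at opposite times in most tissues, stood at 9.39 Nr1d1 UMIs per Arntl UMI in control and 4.49 in STZ rod bipolar-like cells, 0.479 of control (0.380 to 0.603). In cone bipolar-like cells the values were 4.70 and 3.10, 0.660 of control (0.541 to 0.805). In Müller glia-like cells they were 3.69 and 3.69, in cone-like cells 2.19 and 2.06 and in rod-like cells 0.928 and 0.814, each with an interval of the change that included 1. Endothelial-like cells went the other way, from 0.667 to 3.67 (5.50 times control, 2.12 to 14.3). Dbp UMIs per Cry1 UMI, another early and late pair, went from 10.3 to 5.93 in cone bipolar-like and from 14.4 to 8.49 in rod bipolar-like cells.

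In photoreceptor-like cells, Hlf in cone-like cells and Dbp in both classes were higher in STZ beyond counting error, while Tef in both classes and Hlf in rod-like cells had intervals that included 1. Hlf in cone-like cells was 52.8 CPM in control against 96.8 in STZ, 1.83-fold higher (1.55 to 2.17), the 1 cone-like pair past 1.5-fold. Dbp was 118 and 160 CPM in cone-like cells, 1.35-fold higher (1.1998 to 1.52), and 33.8 and 56.5 CPM in rod-like cells, 1.67-fold higher (1.15 to 2.45). Clustered at resolution 2.0, the rod-like log2 ratio of Dbp was 0.30, against 0.74. There, under the gate on each cell's markers and with levels taken as the mean over cells, 0 of 8 rod-like genes were past 1.5-fold. Nr1d1 (1.18-fold, 1.02 to 1.37) and Per3 (1.14-fold, 1.01 to 1.30) were slightly higher in cone-like cells, and the ratios of Tef, Nr1d2, Per1 and Cry1 there had intervals that included 1. With the strict filter, which left 170 control and 92 STZ cone-like cells, Nr1d1 turned to a log2 ratio of -0.28, Cry1 went from 0.21 to 1.18, and 2 of 8 genes were past 1.5-fold higher. Dbp in cone-like cells fell from 0.44 to 0.14 under that filter. With cells thinned to 500 UMIs, cone-like Nr1d1 was at -0.31. In rod-like cells the intervals of the other 7 measured genes included 1. RNA of other cells moves with these values: cells under 800 UMIs held Dbp at 200 CPM in control against 234 in STZ, above both photoreceptor-like levels, and the estimated share of free RNA in cone-like cells was 6.46% in control and 14.7% in STZ. Its part in the rod-like ratios was not tested, since the estimate uses rod genes. With free RNA taken off, 1 cone-like gene was still past 1.5-fold.

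In Müller glia-like cells, the glia that span the retina, Dbp, Nr1d1 and Hlf were nearly equal and Per3, Tef and Nr1d2 were lower in STZ. Dbp was 295.1 CPM in control against 289.1 in STZ, Nr1d1 194.6 and 192.8 CPM, and Hlf 348.0 and 370.3 CPM, with a log2 ratio of 0.09 that turned to -0.04 under the strict filter. Ciart was 49.99 and 70.8 CPM, 1.42-fold higher (1.22 to 1.65). Per3 was 1.22-fold lower (1.13 to 1.33), Tef 1.19-fold lower (1.07 to 1.33) and Nr1d2 1.16-fold lower (1.02 to 1.32). The counting intervals of the ratios were 0.911 to 1.08 for Nr1d1 and 0.915 to 1.05 for Dbp, narrower than the differences seen in rod bipolar-like cells.

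The Müller glia-like class held 4 clusters, of which 1 (cluster 10, 540 control and 455 STZ cells) was rich in the immediate-early gene Fos and another (cluster 9, 563 and 359 cells) was not, with Fos at 4166 and 267 CPM in control. Within the control library Ciart was 71.9 CPM in the Fos-rich cluster and 25.1 CPM in the other, and Per1 36.9 and 24.1 CPM. Per2 was 6.76 and 11.9 CPM, and Dbp 293.3 and 300.4 CPM. Ciart was higher in STZ in both, at 88.0 CPM in the Fos-rich cluster (1.02 to 1.46 for the ratio) and 48.4 CPM in the other (1.39 to 2.67). The clusters were built with Fos among the genes allowed and are a description of cells, not of animals. Cluster 7 held 57 control and 457 STZ cells with a median of 905.5 UMIs. Its log2 ratios were -0.84 for Dbp and -0.75 for Nr1d1. Per3, Tef and Nr1d2 were higher in STZ there (1.44, 0.41 and 0.60), on 4, 5 and 4 control UMIs. The estimated share of free RNA in Müller glia-like cells was 4.92% in control and 18.7% in STZ. With free RNA taken off, 1 of 10 genes of the class was past 1.5-fold higher, against 0. The log2 ratios of the class were then 0.06 for Nr1d1, 0.19 for Hlf and -0.20 for Per3, against -0.01, 0.09 and -0.29. The profile used is not pure free RNA, and the part of free RNA was not tested further.

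Amacrine-like cells had 54 cells in control, and their ratios have wide intervals. Nr1d2 was 167.5 CPM in control against 92.8 in STZ, 1.81-fold lower (1.17 to 2.73), and Tef 172.5 and 110.7 CPM, 1.56-fold lower (1.03 to 2.32). Hlf was 374.5 and 534.3 CPM, 1.43-fold higher (1.12 to 1.84). Per1 had 2 control and 33 STZ UMIs, a ratio of 3.98 with an interval from 1.02 to 34.3. Without the smaller of their 2 clusters (cluster 15, 17 control and 48 STZ cells, left out after the data had been seen), Tef was at a log2 ratio of -0.43 there and no longer past 1.5-fold, and Nr1d2 at -0.63.

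In the vascular classes every measured gene was above equality. Dbp in endothelial-like cells, which line the vessels, had 6 control and 76 STZ UMIs, or 20.2 and 116 CPM, 5.75-fold higher (2.52 to 16.2). Hlf was 23.5 and 88.5 CPM, 3.76-fold higher (1.71 to 9.77), Per3 20.2 and 73.2 CPM, 3.63-fold higher (1.55 to 10.4), and Nr1d1 33.6 and 100.7 CPM, 2.996-fold higher (1.53 to 6.54). The intervals of the other 4 measured genes, Per1, Cry1, Tef and Nr1d2, included 1. Control endothelial-like cells held 5 to 10 UMIs of each of the 8 genes, so these ratios rest on few transcripts. With doublets kept, 5 of 8 were past 1.5-fold. Clustered at resolution 0.5, 7 of 8 were, and the log2 ratios were 1.49 for Dbp, 0.98 for Hlf, 0.80 for Per3 and 0.88 for Nr1d1, against 2.52, 1.91, 1.86 and 1.58.

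Pericytes and smooth muscle cells wrap the vessels and set their tone. Dbp there was 36.0 CPM in control against 76.5 in STZ, 2.12-fold higher (1.12 to 4.32). Nr1d2 was 30.5 and 82.1 CPM, 2.69-fold higher (1.37 to 5.78), and Hlf 85.9 and 143.7 CPM, 1.67-fold higher (1.09 to 2.63). Per2 had 2 control and 21 STZ UMIs, a ratio of 7.07 with an interval from 1.73 to 62.2. The intervals of the other 4 measured genes, Per1, Per3, Tef and Nr1d1, included 1. Control pericyte or smooth muscle-like cells held 2 to 31 UMIs of each measured gene, so these ratios too rest on few transcripts. With cells thinned to 500 UMIs, 0 genes were measured in this class.

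RNA of neurons moved with the endothelial-like values, while rod genes were mixed in pericyte or smooth muscle-like cells. In the latter, Nrl was lower in STZ (55.4 and 33.6 CPM), and Gnat1 (197 and 245 CPM) and Pde6a (44.4 and 56.0 CPM) were higher. The rod genes Gnat1, Pde6a and Nrl were all higher in STZ endothelial-like cells, Gnat1 at 158 CPM in control against 493 in STZ, and the ROR gene Rorb, abundant in neurons and Müller glia, had 5 and 89 UMIs there (8.08-fold, 3.34 to 25.5). The share of free RNA estimated from rod genes was 5.64% in control and 29.4% in STZ endothelial-like cells, and 6.72% and 14.5% in pericyte or smooth muscle-like cells. Median depth of the endothelial-like cells was 3165 UMIs in control and 955 in STZ. Taking off the expected free RNA left 7 of 8 endothelial-like genes past 1.5-fold, with Dbp at a log2 ratio of 2.82, and turned Nr1d2 from 0.70 to -0.73. Control endothelial-like cells held 6 UMIs of Dbp before the subtraction, and 5 to 10 of each measured gene. The values after it rest on still fewer UMIs and cannot decide the part of free RNA, which was not tested. Under a gate on each cell's markers, endothelial-like cells numbered 37 in control and 32 in STZ, too few to compare. Fewer transcripts per cell and a different mix of cells cannot be told apart in such sums.

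Clusters of a class were alike for some genes and split for others. In the 4 cone bipolar-like clusters, Nr1d1 and Dbp were below equality in 4 of 4 (log2 ratios from -0.67 to -0.12 and from -0.38 to -0.09), and Cry1 and Ciart were above it in 4 of 4 (0.20 to 0.98 and 0.20 to 1.31). Early UMIs per late UMI were at 0.439 to 0.785 of control in these clusters, with an interval that included 1 in cluster 4 only. Hlf was less even, at -0.67 in its lowest cone bipolar-like cluster and above 0 in 1 of 4. In cone-like cells both clusters had Hlf (0.68 and 1.06) and Dbp (0.39 and 0.46) above equality, and in rod bipolar-like cells both had Nr1d1 below it (-0.70 in cluster 2 and -0.39 in cluster 23). The interval of the ratio in cluster 23 (0.552 to 1.06) included 1, and that cluster led in Car8, Pcp2, Grm6 and Cabp5 but not in Prkca, Trpm1, Sebox or Strip2, with 0 rod bipolar markers among its 10 top genes. In rod-like cells Dbp was above equality in both clusters, at 0.24 and 1.002, while Nr1d1, Nr1d2, Hlf and Cry1 split. Early UMIs per late UMI there were 1.76 of control in cluster 5 (1.05 to 2.97) and 0.790 in cluster 6 (0.465 to 1.34). Per3 and Tef split between the cone-like clusters, Nr1d1 between the amacrine-like clusters, and Dbp and Hlf were above equality in 2 of 4 Müller glia-like clusters. Clusters of a class share their libraries and are not replicates.

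**Figure D4:**
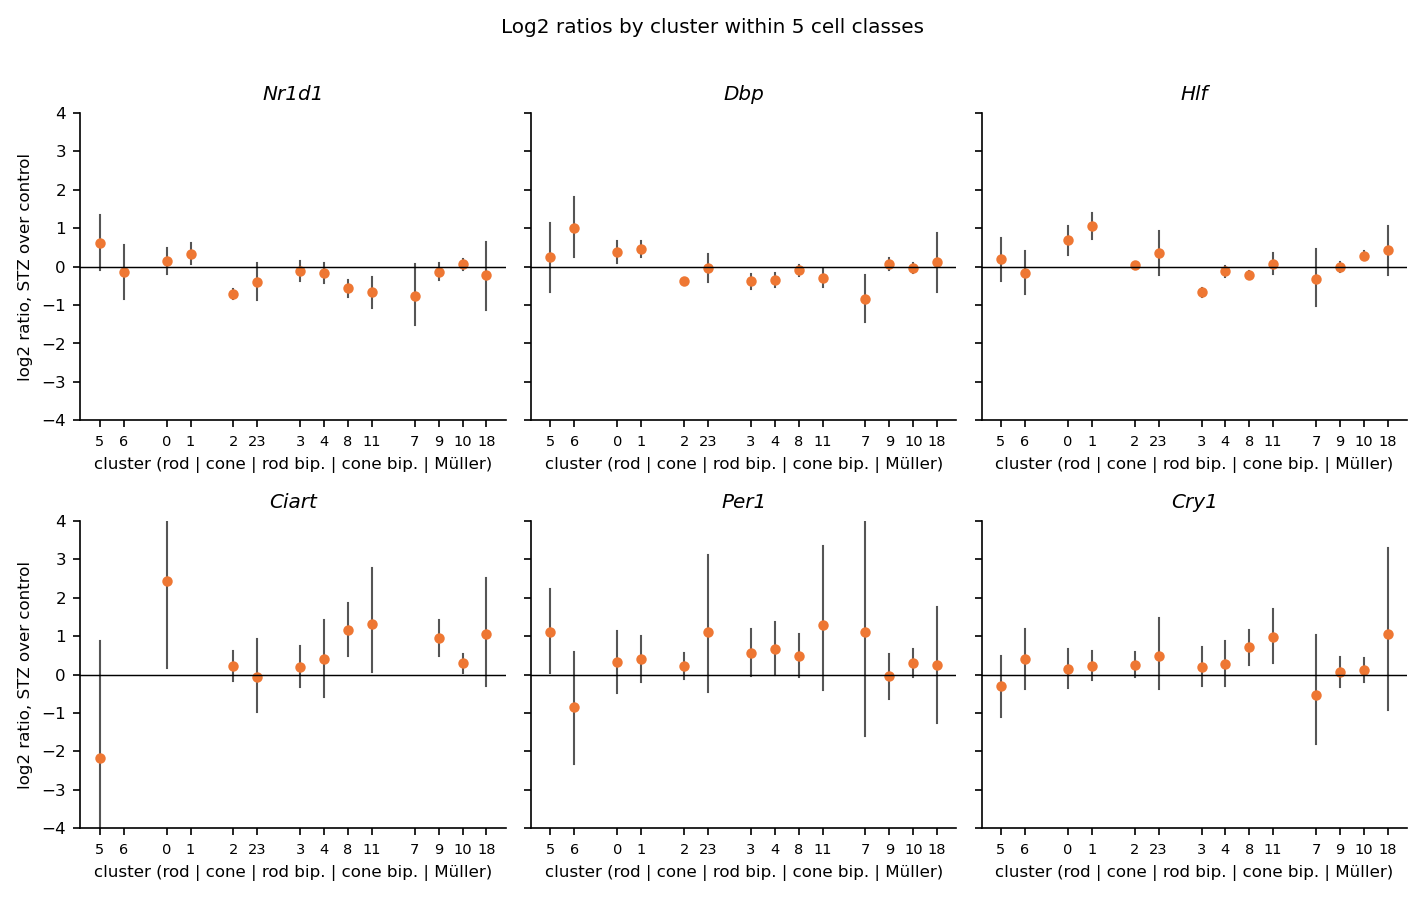
Log2 ratio of STZ over control (vertical axis) of 6 genes in each cluster (horizontal axis, clusters grouped by class in the order rod, cone, rod bipolar, cone bipolar, Müller glia); lines are 95% counting intervals cut at an axis limit of 4 on either side, and clusters with no UMI of the gene in a library have no point. Nr1d1 and Dbp lie below 0 in all 4 cone bipolar-like clusters and Cry1 and Ciart above it.

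Other genes of the loop were counted by list. Of the 4 activator genes, 2 were measured in each class. Clock ratios ran from 0.793 to 1.18 over the 8 classes, and 0 intervals excluded 1. Arntl ran from 0.545 to 1.30, with an interval above 1 in cone-like cells (37.9 and 47.8 CPM, 1.01 to 1.57) and in rod bipolar-like cells (36.5 and 47.3 CPM, 1.04 to 1.62). Npas2 and Arntl2 were too low to measure. Cry2, the second cryptochrome gene, was above equality in 8 of 8 classes, with an interval above 1 in 5, among them cone bipolar-like cells (122 CPM, then 168 CPM in STZ, 1.38-fold, 1.21 to 1.56).

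Nfil3, a repressor that competes with the PAR-bZIP factors at D-boxes, was below equality in the 4 classes where it was measured, and its interval excluded 1 in rod bipolar-like cells (30.5 and 19.8 CPM, 0.482 to 0.867 for the ratio). The ROR activators, which compete with REV-ERB proteins, were mixed: Rora was 1.49-fold higher in Müller glia-like cells (1.33 to 1.68) and Rorb lower there (828 and 656 CPM). Of the 5 other E-box outputs, Ciart included, 2 of 2 measured in cone-like cells were past 1.5-fold, Usp2 at 166 and 340 CPM (2.04-fold, 1.86 to 2.25) and Bhlhe41 at 68.2 and 106 CPM (1.56-fold, 1.34 to 1.82). Usp2 was lower in rod bipolar-like cells, at 292 and 225 CPM (0.704 to 0.839). The same opposite directions in cone-like and rod bipolar-like cells were seen in Dbp and Nr1d1.

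Among clock protein turnover genes and kinases, 1 of 6 measured in rod bipolar-like cells passed 1.5-fold, Csnk1d at 46.0 and 28.5 CPM, and none of 7 did so in cone bipolar-like cells. The PAR-bZIP targets known from other tissues, Pdxk, Por and Alas1, had 0 of 3 past 1.5-fold in either direction in each of the rod-like, cone-like, both bipolar-like, amacrine-like and Müller glia-like classes. In endothelial-like cells 1 of the 3 was past 1.5-fold higher, at a log2 ratio of 0.96, and 1 was lower. The lower one was Alas1, the first enzyme of haem synthesis, at 222 CPM in control against 65.6 in STZ (0.197 to 0.441). The list thus had no shared direction there.

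Of the 3 rhythmic photoreceptor genes measured in rod-like and cone-like cells, 1 was past 1.5-fold higher and 1 lower in each. Drd4, the dopamine receptor of photoreceptors, was 342 CPM in control against 910.3 in STZ in rod-like cells (2.66-fold, 2.39 to 2.96) and 146 and 632 CPM in cone-like cells (4.34-fold, 3.97 to 4.76). Adcy1, a calcium-activated adenylyl cyclase, was 165 and 98.1 CPM in rod-like cells and 78.4 and 35.0 CPM in cone-like cells (0.364 to 0.546). Ppargc1a, a coactivator of mitochondrial genes, had ratios of 0.878 in rod-like (0.680 to 1.13) and 1.07 in cone-like cells (0.948 to 1.21). Aanat, Asmt, Mtnr1a and Mtnr1b were not analysed here.

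Genes that respond to stimuli known to act on the clock were counted beside the members. The cold-inducible genes Cirbp and Rbm3 were past 1.5-fold in 8 of 8 classes, Cirbp from 2.85-fold to 5.76-fold and Rbm3 from 1.61-fold to 4.14-fold. Of 5 glucocorticoid targets, a group that shares the induction of Per1, Tsc22d3 was above equality in 8 of 8 classes. Fkbp5 in Müller glia-like cells went from 5.04 to 27.6 CPM (5.48-fold, 3.75 to 8.22), where 2 of 5 were past 1.5-fold higher and 0 lower. In rod-like cells 2 of 4 were higher and 1 lower, Sgk1 at 650 and 407 CPM (0.564 to 0.694 for the ratio), while Klf9 had a ratio of 0.976. Immediate-early genes had no shared direction: 3 of 9 were past 1.5-fold higher in rod bipolar-like cells, Egr1 at 30.8 and 124 CPM, 3 of 9 lower in rod-like cells, and 0 of 10 in Müller glia-like cells, where Fos was 0.795 of control. Mitochondrial share was 12.6% in control and 14.6% in STZ rod bipolar-like cells and 8.98% and 11.5% in cone bipolar-like cells. The part of body temperature, hormones, handling or RNA quality in the clock gene ratios was not tested.

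Over the 16 values given by 8 classes in 2 libraries, likeness to Dbp differed between members. On log2(CPM + 10), Pearson's r with Dbp was 0.98 for Nr1d1, 0.93 for Per3, 0.92 for Tef, 0.90 for Hlf, 0.70 for Cry1 and 0.50 for Per1. Other pairs were less alike, as Per1 with Nr1d2 (0.13), Per1 with Tef (0.19), Per2 with Cry1 (0.34) and Nr1d2 with Ciart (0.42). The closest of 7112 other genes to the mean of 9 members were Tceal3 (r = 0.95), Bex4 (0.94), Sat2 (0.94), Mgarp (0.93) and Hap1 (0.92). Those closest to Dbp were Abcc5 and Galnt11 (0.94 each), Hmgn3 (0.94), Tceal3 (0.94) and Pja1 (0.94). The points share 2 libraries and differ in depth and cell type, so these values describe likeness between classes and carry no test.

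Some counts may hold reads of a neighbour. In GENCODE on mm10, Nr1d1 (chr11:98767932-98775333) overlaps Thra on the opposite strand, Dbp (chr7:45705088-45710203) overlaps Sphk2 on the opposite strand, Per3 (chr4:151003652-151044665) lies with Camta1 on the same strand, and Tef and Ciart each overlap an antisense gene. Whether counting used strand is not given in the sources used here, so the values of these 5 genes are uncertain to that extent. Per1, Per2, Cry1, Hlf and Nr1d2 overlap no other gene in that annotation.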

How the data were processed

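Single-cell RNA was counted in 2 libraries. The authors deposited raw UMI counts per gene and cell, all whole numbers, and the submitters' processing notes name Cell Ranger 3.0.1, Seurat 3.0 and the mm10 build; settings are not given in the sources used here. No cell exceeds 2999 genes, and the reason is not given in the sources used here. Library depths are given above. Each cell was assigned to control or STZ by the suffix of its name.

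Cells under 200 genes or over 20% mitochondrial counts were left out (25.7% of control and 28.5% of STZ cells for the latter). Doublets were scored with Scrublet in scanpy 1.11.5. Its own threshold marked 0.69% of control and 0% of STZ cells, so the highest-scoring cells of each library were left out at a rate of 0.8% per 1000 cells (4.26% and 7.09%). Clustering used 2000 variable genes without the clock genes, with 15 neighbours over 30 components (Leiden, resolution 1). Marker lists gave the cluster names. Clusters stayed unnamed with too few leading markers, with more markers of another type among their top genes, or with low depth and no own marker there. The unnamed clusters (271 control and 1754 STZ cells) were not compared. Among them was cluster 24 (0 control and 41 STZ cells), which led in 6 endothelial markers but had the neutrophil markers S100a9 and S100a8 among its top genes. A class was compared with at least 50 cells in both libraries.

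UMIs were summed per class and library and divided by the class total. A count of 0 was set to 3, kept only where the bound held its direction. Free RNA was estimated from 4 rod genes with the profile of cells under 800 UMIs, which is not a pure profile of free RNA; the level of 1 of them is not reported here. Ratios and intervals were tested on simulated data. All 10 members are named; other genes come from the lists, up to 4 of a list and class by size of change, with Drd4, Adcy1, Arntl, Npas2, Clock, Cry2, Nfil3, Cirbp, Rbm3 and Fos always allowed, and some named for contrast were chosen after their values were seen. The members and lists were chosen with earlier results of these data known. Alternatives covered cell filters, doublets, clustering, class assignment, scaling, depth, free RNA, shared barcodes, minimum counts and fold, and are given at the end. Python 3.11.15 and scipy 1.17.1 were used.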

Additional observations from a re-analysis of the deposited data

Results flagged for a closer look

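For 5 genes the ratio lay above 1 beyond counting error in 1 class and below 1 in another, which singled them out; with 1 library per group these differences between classes were not tested. The pair named is that with the most UMIs on each side. Nr1d1 had a log2 ratio of 0.24 in cone-like and -0.69 in rod bipolar-like cells, a difference of 0.93 (0.69 to 1.17 by counting error). The cone-like value turned to -0.28 under the strict cell filter and to -0.31 with cells thinned to 500 UMIs. Dbp had 0.44 and -0.38 in the same classes, a difference of 0.82 (0.63 to 1.01), though the cone-like value fell to 0.14 under the strict filter. Per3 had 0.19 in cone-like and -0.29 in Müller glia-like cells, a difference of 0.48 (0.27 to 0.70). Hlf had 0.09 in Müller glia-like and -0.37 in cone bipolar-like cells, a difference of 0.46 (0.35 to 0.57), though the Müller glia-like value turned to -0.04 under that filter. Nr1d2 had 1.43 in pericyte or smooth muscle-like and -0.38 in cone bipolar-like cells, a difference of 1.81 (0.84 to 2.77).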

How the results depend on the processing

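Of 1204 values of a gene in a class under an alternative, 1166 (96.8%) stayed inside the counting interval of the value reported, 37 left it without changing the sign of a value past 1.5-fold, and 1 value past 1.5-fold changed sign, Nr1d2 in endothelial-like cells at -0.73 with free RNA taken off. Values under 1.5-fold changed sign more often, and these changes are not counted as such here. Hlf in rod bipolar-like and Nr1d1 in Müller glia-like cells each kept their sign in 11 of 18 alternatives. No paired analysis was possible because each group has 1 library.

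The 21 higher and 3 lower pairs, and the 3 classes with the early median above the late one, moved under the alternatives named next. With the strict cell filter (500 genes or more, mitochondrial share up to 10%; 7 classes), 1 pair was lower and 1 class had the early median above; early UMIs per late UMI then changed by a log2 value of -0.73 in cone-like cells (170 control and 92 STZ cells), -0.80 in rod bipolar-like cells and 2 in endothelial-like cells, and the cause was not tested. The gate on each cell's markers (5 classes) gave 6 higher, 1 lower and 1 class. Cells thinned to 500 UMIs gave 9 higher and 1 class over 50 measured pairs, and a log2 change of 0.27 in amacrine-like cells. A minimum of 50 UMIs gave 12 higher and 1 class over 62 pairs. A lower fold threshold gave 32 higher and 9 lower, and a fold of 2 gave 9 and 0. The other alternatives stayed within 1.5 times these counts, those chosen after seeing the data (without cluster 7, 15 or 23) included. Leaving out Per2 or Cry1 from the late genes was also chosen then, and without Cry1 the log2 change of early UMIs per late UMI in rod bipolar-like cells was -0.16, since the rest is Per2 alone. Rod bipolar-like cells were kept, since cluster 2 held most of them in both libraries (882 and 815 cells).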

Other observations

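Classes with under 50 control cells were not compared. Pigment epithelium-like cells (49 control and 185 STZ cells) held Dbp at 258 CPM in control against 204 in STZ, Hlf at 180 and 172 CPM, and Nr1d1 at 89.8 and 90.7 CPM, the last resting on 8 and 28 UMIs. Microglia-like cells (40 and 113 cells) held few transcripts of these genes, with 2 and 12 UMIs of Dbp, 0 and 8 of Nr1d1 and 0 and 0 of Per2.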
